A study of Mus musculus with 4 samples.

Results

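The 197 Foxp3 T cells described here came from the islet library of late db/db mice and were chosen from 6301 kept barcodes of that library, and from 20845 kept barcodes in the 4 libraries of the study. A barcode was kept if it reached 1000 UMIs (unique molecular identifiers, the counted RNA molecules) and 500 detected genes and if mitochondrial genes gave no more than 20% of its UMIs. A kept barcode was a Foxp3 T cell when it held at least 1 UMI of Cd3d, Cd3e or Cd3g, at least 1 UMI of Foxp3, no UMI of Cd8a, Cd8b1 or Cd79a, and under 10% of its UMIs from Ins1 and Ins2. The detected Foxp3 UMI therefore defines the group, and levels of Foxp3, Cd3d, Cd3e, Cd3g, Cd8a, Cd8b1, Cd79a, Ins1 and Ins2 are descriptions only. The main comparison group was 484 Cd4 T cells of the same library, which met the same rule except that they held at least 1 Cd4 UMI and no Foxp3 UMI. A second comparison group was 836 Cd8 T cells, with at least 1 Cd8a or Cd8b1 UMI and no Cd4 or Foxp3 UMI.

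The study profiled mouse pancreatic islet cells with 10x Genomics 3′ chemistry, 1 library per group: late db/db at 98 days of age, early db/db at 70 days, late db/db with intervention at 98 days and a normal control at 98 days. The labels describe male C57BL/6 and C57BL/ksJ-db mice bought at 8 weeks of age, and db/db mice fed until blood glucose passed 10 mmol/l. The genotype label of every library, the normal control included, reads db/db(C57BL/KsJ), so the strain of the control is known only from the growth protocol. The db mutation lies in the leptin receptor gene and is present in every cell of the animal, T cells included. The number of mice behind each library and the nature of the intervention are not given in the sources used here, and the name of the early db/db matrix reads as that of a second control, so the sample label was followed. Because each group is 1 library, no test between groups or cell types was possible, and all intervals below are 95% intervals that cover counting error only.

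Foxp3 is the transcription factor that specifies regulatory T cells, which restrain other T cells. These cells carry the high-affinity IL-2 receptor but make little IL-2 themselves, display the inhibitory receptor CTLA-4, and respond through several receptors of the TNF receptor family. In tissues they take on effector programmes that differ from those of the resting cells that circulate through lymph nodes.

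T cells were found mostly in the late db/db library. Barcodes with a Cd3 UMI, no Cd79a UMI and under 10% insulin UMIs numbered 2087 of the kept barcodes in late db/db (33.1%, interval 32.0 to 34.3) and 84 in early db/db (1.75%), with 13 after intervention (0.254%) and 12 in the normal control (0.259%). The rule found 197 Foxp3 T cells in late db/db and 6 in early db/db, 2 after intervention and 0 in the normal control. As a share of T cells this was 9.44% for late db/db (8.22 to 10.8), 7.14% for early db/db (2.67 to 14.9) and 15.4% after intervention (1.92 to 45.4). The 0 of 12 T cells in the normal control allow a share of up to 26.5% (exact bound). The shares in the other 3 libraries rest on so few T cells that their intervals include the late db/db value, and no difference in the Foxp3 share was detectable at this number of cells. Among T cells without a Cd8 UMI, Foxp3 T cells made up 16.7% of 1177 for late db/db, 9.84% of 61 for early db/db and 22.2% of 9 after intervention. The kept barcodes differed in depth between libraries. Their medians were 6428 UMIs for late db/db, 14993 for early db/db, 26842 after intervention and 26469 for the normal control. T cells ran in a different order, deepest for late db/db at a median of 6502 UMIs and shallowest for early db/db at 2546.5. The T cell median was 3659 UMIs after intervention and 6285.5 for the normal control. A Foxp3 UMI is less likely to be seen in a shallower T cell, and the effect on these shares was not tested. All deposited late db/db barcodes, kept or not, had 11 sequences in common with early db/db, 16 with the intervention library and 8 with the normal control. None of the shared barcodes was a Foxp3 T cell of late db/db.

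The 197 Foxp3 T cells held 329 Foxp3 UMIs. Of these cells, 113 had 1 Foxp3 UMI, 54 had 2, 20 had 3, and 10 had between 4 and 7. Their median depth was 6003 UMIs (1629 to 70007), against 5662 UMIs in Cd4 T cells and 7762.5 UMIs in Cd8 T cells. A Cd4 UMI was seen in 101 of the 197 (51.3%), and a UMI of the T cell receptor constant regions Trac, Trbc1 or Trbc2 in 196 of 197. Foxp3 was rare outside this group: 17 of 910 T cells with a Cd8 UMI held a Foxp3 UMI (1.87%), as did 1 of 1897 B cells (0.0527%), whose median depth was 3756 UMIs. Among 898 insulin-rich barcodes, with a median of 86607.5 UMIs, 14 held a Foxp3 UMI (1.56%), and after every barcode was thinned to 2000 UMIs the count was 0 of 884, which allows a share of up to 0.416% (exact bound). After the same thinning, 88 of 1156 T cells without Cd8 UMIs still held a Foxp3 UMI (7.61%), against 1 of 1832 B cells (0.0546%). Thus at matched depth the share of cells with a Foxp3 UMI differed between cell types. Of the Foxp3 T cells themselves 45.4% kept a Foxp3 UMI at 2000 UMIs, so at this depth many cells with Foxp3 RNA showed none.

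Il2ra and Ctla4, the other markers named for this population, accompanied Foxp3. Il2ra, the alpha chain of the IL-2 receptor (chromosome 2, bases 11642807 to 11693193 of GRCm38), had 231 UMIs in 95 of 197 Foxp3 T cells and 91 UMIs in 53 of 484 Cd4 T cells. In cells thinned to 2000 UMIs, Il2ra was seen in 26.3% of Foxp3 T cells (20.2 to 33.1), 5.43% of Cd4 T cells (3.58 to 7.85), 0.602% of Cd8 T cells and 0.382% of B cells. Ctla4, an inhibitory receptor that takes B7 ligands away from CD28 (chromosome 1, bases 60887000 to 60915832), was seen in 45.4% of thinned Foxp3 T cells (38.2 to 52.6), 15.4% of Cd4 T cells (12.3 to 19.0), 4.22% of Cd8 T cells and 0.546% of B cells. Before thinning, at least 1 of Il2ra, Ctla4 and Ikzf2 was seen in 189 of 197 Foxp3 T cells (95.9%), 201 of 484 Cd4 T cells (41.5%) and 162 of 836 Cd8 T cells (19.4%). All 3 genes were seen together in 69 Foxp3 T cells (35%), 25 Cd4 T cells (5.17%) and 6 Cd8 T cells (0.718%). The label of regulatory T cells was thus matched by its markers.

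**Figure D1:**
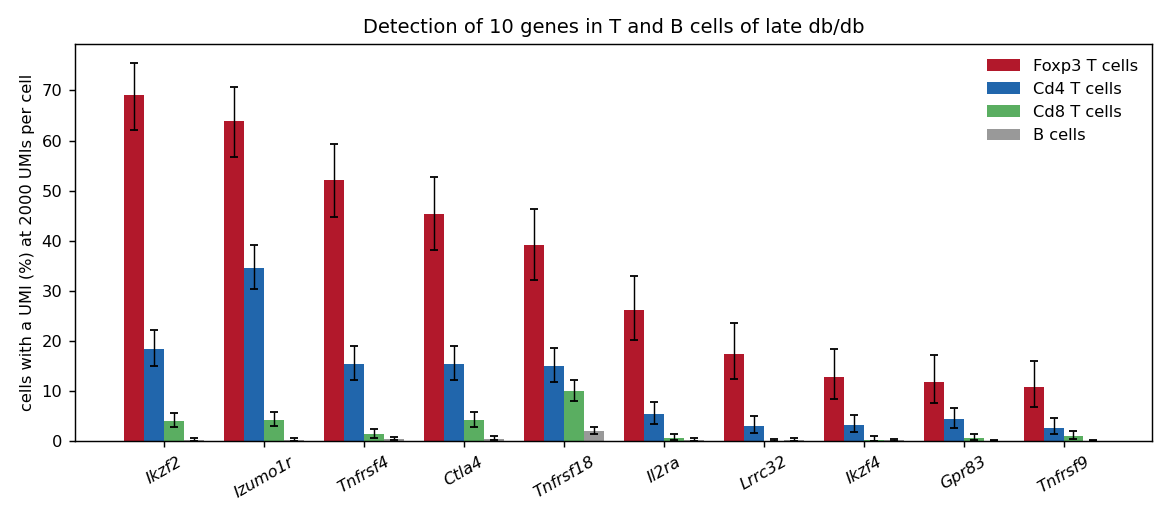
Share of cells with at least 1 UMI of 10 genes, in percent, after each cell was thinned to 2000 UMIs, for Foxp3 T cells, Cd4 T cells, Cd8 T cells and B cells of late db/db. Bars are shares and lines are exact 95% binomial intervals. For each of the 10 genes the Foxp3 T cells have the tallest bar, from 69.1% for Ikzf2 to 10.8% for Tnfrsf9, and B cells are at or under 2.18%.

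The edge of the rule was also visible in the other markers. Cells just inside it, with 1 Foxp3 UMI, held an Ikzf2 UMI in 82.3% of 113 cells, a Ctla4 UMI in 69.0% and an Il2ra UMI in 43.4%. Cells just outside it, Cd4-positive with 0 Foxp3 UMIs, held an Ikzf2 UMI in 27.7% of 484 cells, a Ctla4 UMI in 29.1% and an Il2ra UMI in 11%. The 2 groups had similar depth, with medians of 5503 UMIs in cells with 1 Foxp3 UMI and 5662 UMIs in cells with 0. A Ctla4 and an Ikzf2 UMI together were seen in 87 of the 484 Cd4 T cells (18%), so some cells outside the rule carried the markers of those inside it.

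Set against Cd4 T cells, Foxp3 T cells had higher levels of some receptor and transcription factor genes known from regulatory T cells, among them Il2ra, Lrrc32, Ctla4, Tnfrsf4, Ikzf2 and Ikzf4, and lower levels of Cd40lg and of 4 listed genes of resting T cells. Most of the entered genes of the IL-2 pathway, transcription factor and resting T cell lists were under 2-fold apart. For each group the UMIs of all its cells were added up and expressed as CPM (counts per 1000000 UMIs, mitochondrial and 7 hormone genes left out of the total). The totals were 1505427 UMIs in Foxp3 T cells and 3516980 in Cd4 T cells. Equal UMI sums therefore mean a higher level in Foxp3 T cells. A gene entered the comparison with at least 50 UMIs in both groups together and at least 50 CPM in the higher group, and it was called at a ratio of at least 2-fold. Of 2900 genes that entered, 91 were called higher in Foxp3 T cells (3.14%) and 52 lower (1.79%), and the median log2 ratio was 0.08. Every summed level was exposed to single deep barcodes: 46 of the 91 higher genes and 36 of the 52 lower genes had over 20% of their UMIs, in the group where they were higher, from 1 barcode. The remaining 45 higher and 16 lower genes are called broad below, a division that was made after the values were seen. A gene low in Cd4 T cells could enter only through a high level in Foxp3 T cells, so counts over entered genes are descriptions. With cells left out that had over 2% of UMIs from markers of other types, 100 genes were called higher and 24 lower, of which 60 and 18 were also called among all cells. With every cell thinned to 2000 UMIs the counts were 80 and 48, of which 35 and 22 were shared.

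**Figure D2:**
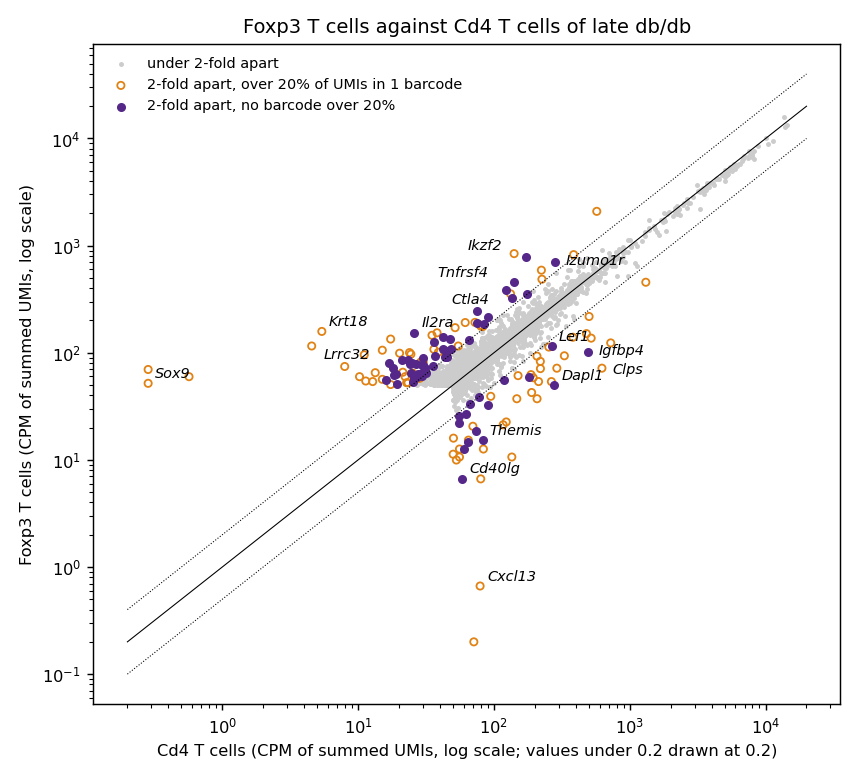
CPM of summed UMIs in Foxp3 T cells (vertical, log scale) and in Cd4 T cells (horizontal, log scale) for the 2900 genes that entered. Filled purple points are called genes with no barcode over 20% of their UMIs, open orange points are called genes with such a barcode, grey points were under 2-fold apart, and dotted lines mark 2-fold. Il2ra, Lrrc32, Ikzf2, Ctla4 and Tnfrsf4 lie above the band as filled points and Igfbp4, Dapl1, Themis and Cd40lg below it, while Sox9, Krt18 and Cxcl13 are open points.

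The genes with the intervals farthest from equal levels were largely not T cell genes. Of the 20 higher genes that ranked first by the bound of their interval nearest to equality, 17 had over 20% of their UMIs from 1 barcode. Keratins and other genes of duct epithelium led them: Krt18 had 238 UMIs in Foxp3 T cells against 19 in Cd4 T cells, Krt8 had 174 against 16, Sox9 78 against 1, Fxyd3 90 against 2 and Wfdc18 105 against 1. A single barcode of 70007 UMIs supplied 92.4% of the Krt18, 93.7% of the Krt8 and 97.4% of the Sox9 UMIs of the Foxp3 T cells. That barcode held 1 Foxp3 UMI and no Trac or Trbc2 UMI. Epcam (144 UMIs in Foxp3 T cells, 39 in Cd4 T cells), Clu (1267 and 495), Tm4sf4 (90 and 36), Rbp4 (98 and 47) and Ttr (3144 and 2009) also had between 57.6% and 92.1% of their UMIs from 1 barcode. Dendritic cell genes formed a further set, with Ccl22 at 112 UMIs in Foxp3 T cells against 28 in Cd4 T cells, Fscn1 at 202 against 61 and Apol7c at 159 against 53, each seen in 4 Foxp3 T cells. Lyz1, a lysozyme, had 219 UMIs in Foxp3 T cells, all from 1 barcode, against 123 in Cd4 T cells. Serpinb6b (231 and 134 UMIs) and Penk (82 and 40 UMIs) had 45.0% and 63.4% from 1 barcode. The 4 others among the 20 were Il2ra, Ikzf2, Lrrc32 and Swap70, described below with their roles. Without cells of over 20000 UMIs the direction turned for Lyz1 (log2 ratio -4.15), Ttr (-1.93), Rbp4 (-1.80) and Tm4sf4 (-0.26), and with only cells of at least 2 Foxp3 UMIs it turned for Fscn1 (-3.65), Apol7c (-1.86), Ccl22 (-0.94), Clu (-0.46) and Serpinb6b (-0.03).

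The 10 lower genes that ranked first had the same feature in reverse. Ctsk had 0 UMIs in Foxp3 T cells and 250 in Cd4 T cells, and 98.0% of the UMIs in Cd4 T cells came from 1 barcode. Cxcl13 (1 UMI in Foxp3 T cells, 278 in Cd4 T cells), Gpnmb (16 and 476), C1qa (10 and 281) and Enpp2 (19 and 294), genes of macrophages or stroma, had between 38.1% and 97.5% of the Cd4 T cell UMIs from 1 barcode. The acinar enzyme genes Clps (108 UMIs in Foxp3 T cells, 2193 in Cd4 T cells), Cela3b (186 and 2545) and Pnliprp1 (56 and 730) had between 48.3% and 51.9% from 1 barcode. Cd40lg and Dapl1 were the 2 genes of the 10 that were spread over many cells.

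RNA of other cell types was present in both groups, with medians per cell that lay closer for some marker lists than for others. Markers of endocrine and exocrine cells other than Ins1 and Ins2 made up 2.87% of UMIs in Foxp3 T cells and 1.95% in Cd4 T cells, with medians per cell of 0.422% in Foxp3 T cells and 0.453% in Cd4 T cells. All 22 of these markers had a UMI in Foxp3 T cells. B cell markers made up 0.103% of UMIs in Foxp3 T cells and 0.0933% in Cd4 T cells, and 18 of 21 were seen in Foxp3 T cells, with Ms4a1, Pax5 and Cr2 at 0. Macrophage and dendritic cell markers made up 0.144% in Foxp3 T cells and 0.154% in Cd4 T cells (17 of 19 seen, Clec9a and Siglech at 0). Stromal and endothelial markers made up 0.0445% in Foxp3 T cells and 0.0552% in Cd4 T cells (20 of 23 seen, Cdh5 and Col1a1 among those at 0). Medians per cell, Foxp3 T cells first, were 0.0618% and 0.0451% for B cell markers and 0.0116% and 0.00990% for macrophage and dendritic cell markers. For stromal and endothelial markers they were 0.00275% and 0.0129%. NK and cytotoxic markers made up 0.0370% in Foxp3 T cells and 0.0384% in Cd4 T cells (10 of 14 seen, Ncr1, Klrb1c, Klrc1 and Gzmb at 0). In 47 of the 197 Foxp3 T cells, markers of other cell types, insulin included, passed 2% of the UMIs. Their part in the called genes was not tested. The broad genes below had no barcode with over 20% of their UMIs in the group where they were higher. Near 2-fold, 1 barcode could still decide a call, as for Rilpl2 at 2.03-fold with 17.4% of its UMIs from 1 barcode.

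**Figure D3:**
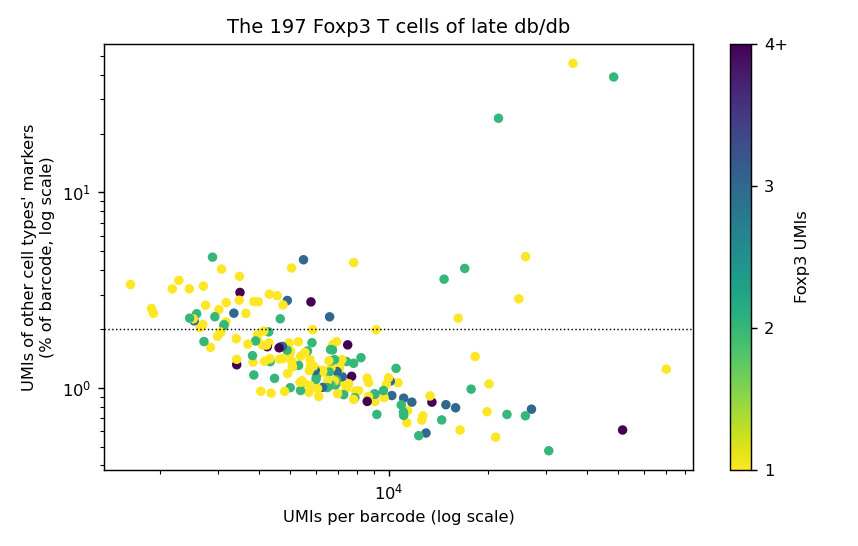
Each of the 197 Foxp3 T cells by its UMIs (horizontal, log scale) and the percentage of its UMIs from markers of other cell types (vertical, log scale), coloured by its number of Foxp3 UMIs. The dotted line marks 2%. Most cells lie between 1629 and 20000 UMIs and under 5%, and 3 barcodes lie above 20%, 2 of them with 48388 and 36370 UMIs; the deepest barcode, with 70007 UMIs, lies at 1.25%.

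Genes of the IL-2 receptor pathway were called in 2 cases. Of 16 listed genes, 12 entered, 2 were called higher and 0 lower, and their median log2 ratio was 0.06 against 0.08 over all genes. The shares over all entered genes, 3.14% higher and 1.79% lower, apply to this and the later lists against Cd4 T cells. Il2ra stood at 153 CPM in Foxp3 T cells against 25.9 CPM in Cd4 T cells, a log2 ratio of 2.57 (2.21 to 2.93). Il2rb, the beta chain shared with the IL-15 receptor, stood at 187 CPM against 84.4 CPM, a log2 ratio of 1.14 (0.90 to 1.38). The common gamma chain Il2rg differed little, at 158 CPM in Foxp3 T cells and 170 CPM in Cd4 T cells, and so did the kinase gene Jak1 (343 and 363 CPM). Cish, a STAT5 target, stood at 73.7 CPM against 39.5 CPM (log2 ratio 0.90), and Il7r, the IL-7 receptor, at 183 CPM against 284 CPM (log2 ratio -0.63), both under the 2-fold mark. Il2 itself had 8 UMIs in Foxp3 T cells and 40 in Cd4 T cells, too few to enter.

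Suppressive and co-inhibitory molecules included 5 genes called higher. Of 23 listed genes, 8 entered, 5 were called higher and 0 lower (3.14% and 1.79% over all entered genes). Their median log2 ratio was 1.26. Lrrc32 (GARP), which docks latent TGF-beta on the surface, stood at 81.0 CPM in Foxp3 T cells and 16.8 CPM in Cd4 T cells, a log2 ratio of 2.27 (1.81 to 2.75). Ctla4 stood at 389 CPM against 123 CPM, a log2 ratio of 1.66 (1.48 to 1.85). Nt5e (CD73), the ectoenzyme that makes adenosine from AMP, had a log2 ratio of 1.35 (1.10 to 1.60) and was seen in 39.7% of thinned Foxp3 T cells against 10.4% of Cd4 T cells. Izumo1r (folate receptor 4) stood at 707 CPM against 280 CPM (log2 ratio 1.34), and the semaphorin and VEGF co-receptor Nrp1 at 109 CPM against 48.3 CPM (log2 ratio 1.17). Cd200 (log2 ratio 0.15), Tgfb1 (0.22) and Lgals1 (-0.20) entered and were under 2-fold apart. Several known effectors had few UMIs and did not enter. Their UMI sums are not scaled, and similar sums stand for a higher level in Foxp3 T cells, the group with the smaller total. With no minimum CPM, 16 of the 23 listed genes entered, 9 were called higher and 1 lower. Il10 had 45 UMIs in 20 Foxp3 T cells and 23 UMIs in 10 Cd4 T cells, Ebi3 had 35 against 32, Entpd1 (CD39) 18 against 11, Pdcd1 58 against 57 and Lag3 61 against 74. Tigit had 2 UMIs in Foxp3 T cells and 5 in Cd4 T cells, and Gzmb had 0 and 3.

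The TNF receptor family held several of the broad genes. Of 22 listed co-stimulatory and TNF family genes, 14 entered, 6 were called higher and 1 lower (3.14% and 1.79% over all entered genes). Their median log2 ratio was 0.59. Tnfrsf9 (4-1BB) stood at 85.0 CPM in Foxp3 T cells and 21.04 CPM in Cd4 T cells, a log2 ratio of 2.01 (1.59 to 2.45). Tnfrsf4 (OX40) stood at 453 CPM against 140 CPM (log2 ratio 1.70, 1.53 to 1.87), and Tnfrsf18 (GITR) at 217 CPM against 90.1 CPM (1.26, 1.04 to 1.49). Tnfrsf1b, the second TNF receptor, stood at 63.8 CPM against 27.6 CPM (1.21, 0.79 to 1.63). These 4 receptors sense ligands that antigen-presenting cells and activated T cells display. Cd83 (log2 ratio 1.81) and the B7 molecule Cd86 (1.21) were the other 2 called higher, Cd86 with 21.5% of its UMIs from 1 barcode and a lowest ratio of 0.42 over the alternatives. With cells thinned to 2000 UMIs, 11 genes of the list entered, 3 were called higher and 2 lower. Cd40lg, the CD40 ligand through which helper T cells activate B cells and dendritic cells, was the 1 called lower, with 10 UMIs in 9 Foxp3 T cells and 204 UMIs in 137 Cd4 T cells, a log2 ratio of -3.13 (-4.21 to -2.22). Cd28 stood at 266 CPM in Foxp3 T cells against 327 CPM in Cd4 T cells and Icos at 213 CPM against 147 CPM, both under 2-fold.

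Tnfrsf4 and Tnfrsf18 are neighbours on chromosome 4, with RefSeq starts 12627 bases apart, and Tnfrsf9 lies on the same chromosome. The 250 bases before the RefSeq starts (GRCm38.p6, plus strand) of these 3 genes and of Foxp3, Il2ra and Ctla4 are printed because these genes define the population or were higher in it together. STAT5, which acts downstream of the IL-2 receptor, binds the motif TTCNNNGAA, and matches to it are in capitals. The window of Foxp3 lies at chrX:7580233-7580482, that of Il2ra at chr2:11642542-11642791, that of Ctla4 at chr1:60908775-60909024, that of Tnfrsf4 at chr4:156013445-156013694, that of Tnfrsf18 at chr4:156026072-156026321 and that of Tnfrsf9 at chr4:150927749-150927998.
Foxp3: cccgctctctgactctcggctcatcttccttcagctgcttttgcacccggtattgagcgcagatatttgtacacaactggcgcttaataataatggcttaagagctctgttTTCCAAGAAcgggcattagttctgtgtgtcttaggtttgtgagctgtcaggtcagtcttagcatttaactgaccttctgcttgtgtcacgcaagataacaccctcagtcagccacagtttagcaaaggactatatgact
Il2ra: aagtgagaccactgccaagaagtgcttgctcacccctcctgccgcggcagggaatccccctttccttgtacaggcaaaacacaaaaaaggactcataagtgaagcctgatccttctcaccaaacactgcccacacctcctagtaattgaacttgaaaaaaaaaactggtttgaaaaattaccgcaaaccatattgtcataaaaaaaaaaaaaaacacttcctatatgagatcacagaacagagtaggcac
Ctla4: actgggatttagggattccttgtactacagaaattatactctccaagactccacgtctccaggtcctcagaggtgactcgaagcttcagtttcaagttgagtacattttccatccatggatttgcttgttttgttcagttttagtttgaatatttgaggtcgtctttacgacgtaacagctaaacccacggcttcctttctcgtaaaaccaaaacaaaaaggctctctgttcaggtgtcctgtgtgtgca
Tnfrsf4: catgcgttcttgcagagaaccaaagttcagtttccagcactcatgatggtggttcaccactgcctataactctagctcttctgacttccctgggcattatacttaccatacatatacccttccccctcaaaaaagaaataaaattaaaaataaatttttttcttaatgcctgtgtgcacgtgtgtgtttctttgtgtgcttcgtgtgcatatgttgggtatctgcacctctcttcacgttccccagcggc
Tnfrsf18: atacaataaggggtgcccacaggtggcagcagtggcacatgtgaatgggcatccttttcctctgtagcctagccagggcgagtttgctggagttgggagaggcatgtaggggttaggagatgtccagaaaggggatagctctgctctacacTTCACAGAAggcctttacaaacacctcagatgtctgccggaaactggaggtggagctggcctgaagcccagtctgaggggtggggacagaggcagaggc
Tnfrsf9: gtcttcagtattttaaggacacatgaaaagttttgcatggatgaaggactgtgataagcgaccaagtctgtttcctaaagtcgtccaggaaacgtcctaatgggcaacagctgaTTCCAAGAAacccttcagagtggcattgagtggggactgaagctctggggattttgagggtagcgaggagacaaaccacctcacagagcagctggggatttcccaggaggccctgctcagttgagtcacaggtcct
The windows shown for Foxp3 and Tnfrsf9 belong to the second of 2 starts that RefSeq lists for each, and were chosen because they hold a match; the windows of the first starts of Foxp3 and Tnfrsf9 held none. The match lay 139 bases before the start in Foxp3, 99 bases before it in Tnfrsf18 and 136 bases before it in Tnfrsf9. The windows of Il2ra, Ctla4 and Tnfrsf4 held no match, which says only that these letters are not in these 250 bases. The motif, which reads alike on both strands, was present in 7.02% of 32851 windows of all genes. Of the 45 broad higher genes, 31 had a window, and 5 of their 39 windows held the motif (12.8%): those of Tnfrsf18, Tnfrsf9, Tnfrsf1b, Inpp5f and Ubash3b. Of the 16 broad lower genes, 13 had a window, and 1 of their 23 windows held it (4.35%), that of Fam78a. The forkhead motif TGTTTAC, read on both strands, was in 3.17% of all windows, in 1 of the 39 (2.56%, Kdm2b) and in 1 of the 23 (4.35%, Dapl1).

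Transcription factors of regulatory T cells were led by 2 members of the Ikaros family. Of 33 listed factors in the file, 24 entered, 4 were called higher and 0 lower (3.14% and 1.79% over all entered genes). Their median log2 ratio was 0.45. Ikzf2 (Helios), associated with regulatory T cells of thymic origin (chromosome 1, bases 69531214 to 69687245), had 1170 UMIs in 174 Foxp3 T cells and 601 UMIs in 134 Cd4 T cells. Its level was 777 CPM in Foxp3 T cells and 171 CPM in Cd4 T cells, a log2 ratio of 2.19 (2.04 to 2.33). Ikzf4 (Eos), a partner of Foxp3 in gene silencing, stood at 72.4 CPM against 18.2 CPM (1.99, 1.53 to 2.46). The nuclear receptor Nr4a2 (1.41) and Maf (1.02), a factor of Il10 expression, were the other 2. Ikzf1 (log2 ratio -0.95), Satb1 (-0.82) and Runx3 (-0.63) were lower by under 2-fold. Among factors of helper lineages, 6 of 12 entered, 0 were called and the median was 0.44. Tbx21 (T-bet), the factor of Th1 cells, had 0 UMIs in Foxp3 T cells and 12 UMIs in 12 Cd4 T cells, and Gata3 stood at 104 CPM against 72.2 CPM.

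Genes of tissue and effector regulatory T cells were mixed. Of 33 listed genes in the file, 21 entered, 7 were called higher and 1 lower (3.14% and 1.79% over all entered genes). Their median log2 ratio was 0.57. Swap70, which binds phosphoinositides, stood at 99.0 CPM in Foxp3 T cells and 20.2 CPM in Cd4 T cells (2.29, 1.88 to 2.72), with 22.1% of its UMIs from 1 barcode. Gpr83 (log2 ratio 1.74), a receptor long used as a marker of regulatory T cells, the tetraspanin Cd81 (1.64, with 26.4% of its UMIs from 1 barcode), the actin-capping gene Capg (1.26) and Samsn1 (1.01) were called, besides Ikzf2 and Penk. Penk, which encodes the enkephalin precursor, was seen in 12 Foxp3 T cells and 9 Cd4 T cells. The 1 called lower, Lgals3 (-1.59), had 75.6% of its Cd4 T cell UMIs from 1 barcode. Rgs1 (751 CPM in Foxp3 T cells, 426 CPM in Cd4 T cells) and Srgn (759 and 482 CPM) were higher by less than 2-fold, and S100a4 (348 and 307 CPM) was close to equal. Receptors that mark tissue-resident regulatory T cells elsewhere had few UMIs: Klrg1 17 in Foxp3 T cells and 0 in Cd4 T cells, at least 13.2-fold higher against a floor of 3 UMIs, Ccr8 8 and 2, Il1rl1 (the IL-33 receptor) 6 and 1, and Itgae (CD103) 39 and 15. Over the alternative settings the lowest log2 ratio was under the 2-fold mark for Samsn1 (0.85), Cd81 (0.81) and Maf (0.76), and it was nearest to equality at -0.74 for S1pr4, while Il2ra stayed between 2.38 and 2.80 and Ikzf2 between 2.10 and 2.44. The sign turned for Lgals3, to 0.29 without cells of over 20000 UMIs.

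Effector cytokines were sparse in Foxp3 T cells. Of 24 listed cytokine genes, 5 entered and 0 were called, with a median log2 ratio of 0.17. Ifng had 0 UMIs in Foxp3 T cells and 53 UMIs in 17 Cd4 T cells, at least 7.56-fold lower against a floor of 3 UMIs over the group. Il22 had 0 UMIs in Foxp3 T cells and 80 UMIs in 4 Cd4 T cells, Il4 had 0 and 19, Il17a 0 and 5, and Il21 1 and 8. These cytokines belong to helper T cells of the Th1, Th22, Th2, Th17 and follicular kinds. Ltb, encoding lymphotoxin beta, was abundant in both, at 729 CPM in Foxp3 T cells and 648 CPM in Cd4 T cells. Ccl5 stood at 298 CPM against 165 CPM but was seen in 23 Foxp3 T cells, with 40.5% of the UMIs from 1 of them. Of 16 genes of follicular T cells, 7 entered, Maf was called higher and Cd40lg lower, and Cxcr5 had 17 UMIs in Foxp3 T cells and 33 in Cd4 T cells.

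Igfbp4, Dapl1, Rasgrp2 and Lef1 were the genes of resting and lymphoid-homing T cells called lower. Of 20 listed genes, 16 entered, 0 were called higher and 4 lower (3.14% and 1.79% over all entered genes). Their median log2 ratio was -0.80 against 0.08 over all genes. Igfbp4, which binds insulin-like growth factors, stood at 102 CPM in Foxp3 T cells and 490 CPM in Cd4 T cells, a log2 ratio of -2.26 (-2.51 to -2.02). It was seen in 12.4% of thinned Foxp3 T cells (8.10 to 17.8) against 41.8% of Cd4 T cells (37.3 to 46.3). Dapl1, a gene of naive T cells, had a log2 ratio of -2.48 (-2.84 to -2.14), with 75 UMIs in 28 Foxp3 T cells and 978 UMIs in 224 Cd4 T cells. Rasgrp2 (-1.60), which activates integrins through Rap1, and Lef1 (-1.20), a factor of naive T cells, completed the 4. Tcf7 (-0.95), Klf2 (-0.80) and S1pr1 (-0.80), the receptor for exit from lymph nodes, were lower by under 2-fold. The homing receptor Ccr7 differed little in summed level, at 305 CPM in Foxp3 T cells and 273 CPM in Cd4 T cells. Even so, at 2000 UMIs Ccr7 was seen in 27.8% of Foxp3 T cells against 36.5% of Cd4 T cells, so for Ccr7 the share of cells and the level ran in opposite directions.

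In the list of chemokine receptors and integrins and in that of the T cell receptor pathway, 1 gene each was called, both lower. Over all entered genes 3.14% were called higher and 1.79% lower. Of 29 chemokine receptor and integrin genes, 14 entered, 0 were called higher and 1 lower, S1pr4 (-1.24), and the median was -0.04. Of 29 genes of T cell receptor signalling, 26 entered, 0 were called higher and 1 lower, with a median of -0.06. The 1 was Themis, a gene needed for thymocyte selection, with 23 UMIs in 20 Foxp3 T cells and 290 UMIs in 164 Cd4 T cells, a log2 ratio of -2.43 (-3.11 to -1.82). Trbc2 stood at 1498 CPM in Foxp3 T cells and 1518 CPM in Cd4 T cells, and Zap70 at 109 and 113 CPM. Further broad lower genes were Rgcc (-2.26), Pdlim4 (-2.15), Rflnb (-1.98) and Lmo4 (-1.47), and further broad higher genes were Eno3 (1.87), a muscle enolase, Hopx (1.72), Bmyc (1.70), the phosphatase Dusp4 (1.67) and Slamf1 (1.58).

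**Figure D4:**
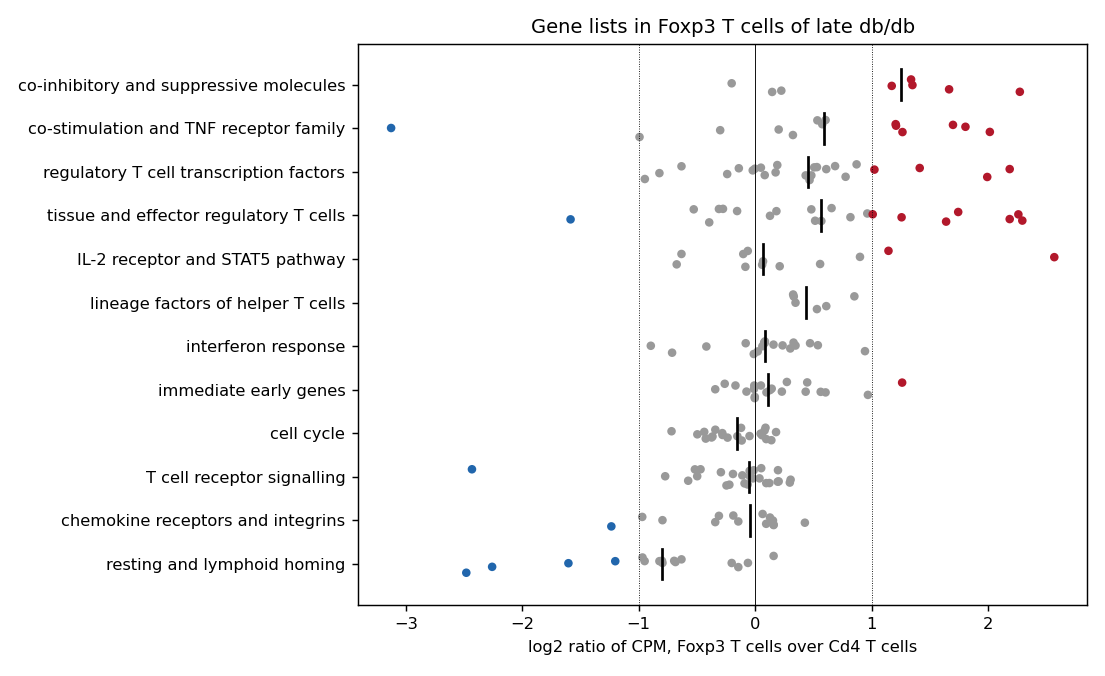
log2 ratio of CPM, Foxp3 T cells over Cd4 T cells, for the genes of 12 lists that entered the comparison. Each point is a gene, red at or above 1, blue at or below -1 and grey between, and black bars are list medians. The median is 1.26 for co-inhibitory and suppressive molecules and -0.80 for resting and lymphoid homing genes, and no cell cycle or interferon gene passes 2-fold.

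In the main values, proliferation, interferon response, stress and metabolism differed little between Foxp3 and Cd4 T cells. For cell cycle genes 21 of 30 entered and 0 were called (median log2 ratio -0.15). The sign of this median depended on the setting. It ran from -0.23 with ratios centred on the median gene to 0.47 with members of at least 2 Foxp3 UMIs. In the latter setting 26 entered, 23 lay above equality and 1 was called higher. Mki67, a protein of cycling cells, stood at 131 CPM in Foxp3 T cells and 126 CPM in Cd4 T cells, and a UMI of Mki67 or Top2a was seen in 32 Foxp3 T cells (16.2%, 11.4 to 22.2), 66 Cd4 T cells (13.6%, 10.7 to 17.0) and 71 Cd8 T cells (8.49%). Interferon response genes gave 18 of 37 entered and 0 called (0.08), with Gbp7 the farthest at 0.94 and Ly6a at -0.90. Heat shock genes gave 10 of 10 entered and 0 called (-0.04). Immediate early genes gave 20 of 23 entered and 1 called, Fosb (1.26), with 69.9% of its UMIs from 1 barcode and a log2 ratio of -0.02 without cells of over 20000 UMIs. Glycolysis and lipid genes gave 17 of 31 entered and 1 called, the desaturase gene Scd2 (1.17), with 22.8% of its UMIs from 1 barcode and a lowest ratio of 0.72 over the alternatives. Receptors and mediators of leptin, insulin and glucocorticoid signals gave 5 of 10 entered and 0 called (-0.11). Lepr, the leptin receptor gene mutated in db/db mice, had 3 UMIs in Foxp3 T cells, 6 in Cd4 T cells and 0 in Cd8 T cells, which is at the floor.

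Against Cd8 T cells most of the receptor genes called higher above had larger ratios, but Il2rb (log2 ratio 0.77) and Cd86 (1.14) had smaller ones than against Cd4 T cells. Of 2881 genes that entered, 309 were called higher in Foxp3 T cells (10.7%) and 82 lower (2.85%). The median gene was 0.30 higher on the log2 scale, and after centring on it the counts were 208 higher and 120 lower, so that higher calls made up 63.4% of all calls in place of 79.0%. Lrrc32 had 122 UMIs in Foxp3 T cells and 6 in the 836 Cd8 T cells, a log2 ratio of 6.51 (5.34 to 7.98). Ikzf4 (5.47), Il2ra (5.43), Tnfrsf4 (5.22), Maf (4.50), Ikzf2 (4.46), Izumo1r (4.30) and Ctla4 (3.75) followed, all far above the median gene. Of the 20 listed resting and homing genes, 16 entered and 9 were called lower, among them Dapl1 (-3.33), Igfbp4 (-2.19) and Lef1 (-1.75). Ly6c2, a surface antigen of Cd8 T cells, had 2 UMIs in Foxp3 T cells and 3899 in Cd8 T cells, a log2 ratio of -8.77 (-11.81 to -6.91). Nkg7 (-4.60), Klrd1 (-6.79) and Runx3 (-2.22), genes of the cytotoxic lineage, were lower as well. Of 19 cell cycle genes that entered, 10 were called higher and 0 lower, with Mki67 at 131 CPM in Foxp3 T cells and 28.6 CPM in Cd8 T cells (log2 ratio 2.19, 1.90 to 2.49). Without cells of over 20000 UMIs 4 of 11 entered cell cycle genes were called higher, and with cells thinned to 2000 UMIs 4 of 12. Of the genes of tissue and effector regulatory T cells, 17 of the 21 that entered were called higher than in Cd8 T cells, S100a4 (3.22), Capg (3.73) and Rgs1 (1.75) included.

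Within the Foxp3 T cells, the shares of cells with an S100a4 or S100a6 UMI varied with the detection of Ccr7. The 150 Foxp3 T cells with at most 2% of UMIs from other types' markers were divided by detection of the homing receptor gene Ccr7. The limit of 2% did not remove all RNA of other cells. The barcode of 70007 UMIs, with 220 Krt18 UMIs and no Trac or Trbc2 UMI, lay at 1.25% and stayed. A Ccr7 UMI was detected in 89 of the 150 and not in 61. The 2 parts differed in depth, with medians of 7180 UMIs in cells with a Ccr7 UMI and 5503 UMIs in cells without, and a UMI is more likely in a deeper cell. Of 3045 genes, 28 were at least 2-fold higher with a Ccr7 UMI (0.92%) and 168 lower (5.52%), and the median log2 ratio was -0.21. Centred on the median gene the counts were 64 higher and 103 lower. Igfbp4 had 122 UMIs in cells with a Ccr7 UMI and 16 in cells without (log2 ratio 2.25, 1.49 to 3.10), the survival gene Bcl2 had 390 with and 101 without (1.26, 0.95 to 1.59), and Satb1 had 147 with and 41 without (1.16, 0.65 to 1.69). Klf2 (0.25) and Lef1 (0.52) were under 2-fold apart. At 2000 UMIs, Bcl2 was seen in 55.1% of cells with a Ccr7 UMI (44.1 to 65.6) and 31.1% of cells without (19.9 to 44.3), and these intervals overlap narrowly. S100a4 was seen in 4.49% of thinned cells with a Ccr7 UMI (1.24 to 11.1) and in 31.1% without (19.9 to 44.3), and S100a6 in 7.87% with (3.22 to 15.5) and 37.7% without (25.6 to 51.04). The intervals of these 2 genes did not overlap. These genes were selected, and no count of such intervals over all 3045 genes is given here. How unusual the non-overlap is therefore cannot be said. Maf was seen in 30.3% of cells with a Ccr7 UMI (21.03 to 40.99) and 47.5% of cells without (34.6 to 60.7), and Ctla4 in 37.1% with (27.1 to 47.97) and 54.1% without (40.8 to 66.9), with intervals that overlap. Ikzf2 hardly differed in level, with a log2 ratio of -0.12 (-0.31 to 0.07), and Il2ra was 0.95 higher with a Ccr7 UMI (0.47 to 1.45).

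**Figure D5:**
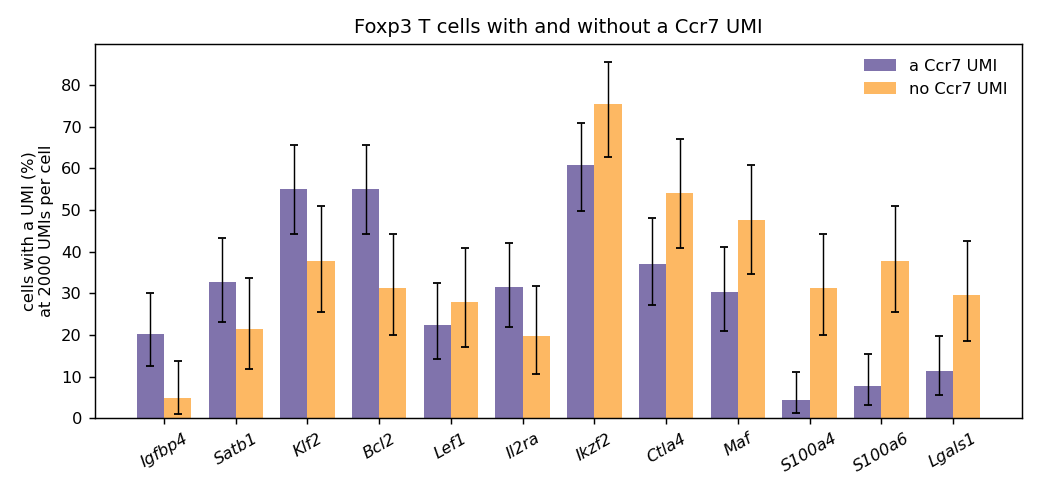
Share of Foxp3 T cells with a UMI of 12 genes, in percent after thinning to 2000 UMIs, for 89 cells with a Ccr7 UMI and 61 cells without, all with at most 2% of UMIs from markers of other cell types. Bars are shares and lines are exact 95% binomial intervals. The intervals of S100a4 and S100a6 lie apart, lower in cells with a Ccr7 UMI, while those of the other 10 genes overlap. The 12 genes are a selection and do not stand for all genes.

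The cells were also divided by their number of Foxp3 UMIs, a count that rises with depth. Of the same 150 cells, 66 had at least 2 Foxp3 UMIs and 84 had 1, with median depths of 7071.5 UMIs in cells with at least 2 and 6058 UMIs in cells with 1. Of 3008 genes, 83 were at least 2-fold higher with at least 2 Foxp3 UMIs (2.76%) and 81 lower (2.69%). The barcode of 70007 UMIs, with 220 Krt18 UMIs and no Trac or Trbc2 UMI, was among the cells with 1. Its UMIs raise levels there, and its part in the 81 was not tested. Stmn1, a tubulin-binding protein of dividing cells, had 239 UMIs with at least 2 Foxp3 UMIs and 58 with 1 (log2 ratio 2.10), and Mki67 had 162 UMIs in 11 cells with at least 2 Foxp3 UMIs and 32 UMIs in 4 cells with 1 (2.40). These UMIs lay mostly in deep barcodes: of the 197 Mki67 UMIs of all Foxp3 T cells, 150 came from 8 of the 13 cells with over 20000 UMIs. Single barcodes held up to 56.9% of the Stmn1 UMIs, so the shares of thinned cells are given as well: 15.2% (7.51 to 26.1) against 3.57% (0.743 to 10.1), which overlap. Eno3 was seen in 21.2% (12.1 to 33.0) and 2.38% (0.290 to 8.34). Its intervals lie apart, but Eno3 was selected and no count of such intervals over all 3008 genes is given here. How unusual this is cannot be said. Igfbp4 (log2 ratio -1.44), Ly6c1 (-1.94) and Klf3 (-1.33) were lower with at least 2 Foxp3 UMIs. Ctla4 (0.70), Ikzf2 (0.58) and Tnfrsf18 (0.50) were higher by less than 2-fold, and Il2ra did not differ beyond its interval (0.10, -0.32 to 0.52).

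An Ikzf2 UMI was detected in 130 of the 150 cells and not in 20, with median depths of 6771.5 UMIs in cells with it and 5545.5 UMIs in cells without, and a cell without an Ikzf2 UMI may still hold its RNA. Of 2924 genes, 573 were at least 2-fold higher with Ikzf2 (19.6%) and 64 lower (2.19%), and the median log2 ratio was 0.31. The barcode of 70007 UMIs held 1 Ikzf2 UMI, and its part in the 573 was not tested. Centred on the median gene the counts were 365 higher and 165 lower, so higher calls depend on the scaling. Tnfrsf4 had 546 UMIs in cells with an Ikzf2 UMI and 7 in cells without (log2 ratio 3.01, 1.95 to 4.33). Klf2 was seen in 43.1% of thinned cells with Ikzf2 (34.4 to 52.0) and in 80.0% without (56.3 to 94.3). Igfbp4 was seen in 7.69% (3.75 to 13.7) and 55.0% (31.5 to 76.9), and Ly6c1 in 5.38% (2.19 to 10.8) and 35% (15.4 to 59.2). Klf2, Igfbp4 and Ly6c1 were selected, and no count of intervals that lie apart over all 2924 genes is given here. How unusual their non-overlap is cannot be said. Mki67 and Top2a had 194 and 226 UMIs in cells with Ikzf2 and 0 in the 20 cells without. Most of these UMIs came from a few deep cells. The 13 deepest Foxp3 T cells held 150 of all 197 Mki67 UMIs and 147 of all 227 Top2a UMIs. A UMI of either gene was seen in 32 of the 197 Foxp3 T cells (16.2%). The 20 cells are therefore too few for the absence of both genes to be read as a difference.

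The 8 Foxp3 T cells of the other libraries carried some of the same genes. In the 6 cells of early db/db, with a median of 3729.5 UMIs, Ctla4 had 14 UMIs in 6 cells, Ikzf2 20 UMIs in 5 cells, Tnfrsf4 35 UMIs in 5 cells and Il2ra 1 UMI. In the 2 cells of late db/db with intervention, with a median of 2945.5 UMIs, Ikzf2 had 11 UMIs in both cells, Tnfrsf4 9 UMIs in 1 cell and Il2ra and Ctla4 1 UMI each. These counts are too small to compare levels between libraries.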

How the data were processed

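Per the labels' protocols, islet cells were profiled with the 10x Genomics 3′ v3 kit. The submitters' processing notes name mm10, CASAVA 1.8, Cell Ranger and Seurat, and per the file headers the matrices come from Cell Ranger 3.0.0. The deposited matrices hold UMI counts of 30905 genes per barcode with no normalization. The members and the 24 gene lists were chosen with earlier results of these data known. UMIs were summed per cell group, and ratios of CPM were given exact conditional binomial intervals and shares exact Clopper-Pearson intervals (scipy 1.17.1). A group at 0 was set to a floor of 3 UMIs. For shares, cells were thinned to 2000 UMIs, which left out 3 Foxp3, 5 Cd4 and 6 Cd8 T cells. PCR and capture errors are not covered by these intervals. Genes were named by this rule: the 20 higher and 10 lower called genes whose interval bound nearest to equality lay farthest from it, 2 to 6 genes at the ends of each list, and Foxp3, Il2ra and Ctla4. Others named in the text (genes of interest with few UMIs, further broad genes) were chosen after their values were seen. Doublets were not removed in the main values: Scrublet in scanpy 1.11.5 marked 65 of 6301 barcodes (1.03%), and leaving out the 318 highest scores, 8 Foxp3 T cells among them, was an alternative. Gene positions are from GENCODE M21 and windows from RefSeq. The scripts were tested on simulated counts. The division of the Foxp3 T cells by Ccr7 alone was chosen after the data were seen, in place of a planned division by a pair of genes, and some genes are not reported here.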

Additional observations from a re-analysis of the deposited data

How the results depend on the processing

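None of the broad genes that were recomputed, those of the lists and of the ranking, changed sign under the alternatives tried: other denominators, centring, filters, doublets left out, other definitions of both groups, thinning and, chosen after seeing the data, leaving out cells of over 20000 UMIs or with over 2% of UMIs from other types' markers. Sizes of ratios moved more than signs. Of all recomputed genes, broad or not, thinning left 21 within their main interval, moved 42 outside it and turned the sign of 3. With members of at least 2 Foxp3 UMIs these counts were 25, 36 and 6. Without cells holding a marker UMI of another type they were 25, 34 and 3. Centring on the median gene left 70 within the interval. Against Cd4 T cells, the 91 higher and 52 lower genes became 253 and 149 with no minimum CPM, where more low genes enter. The lower genes numbered 80 with members of at least 2 Foxp3 UMIs and 24 without cells of over 2% other-type markers, and the higher genes numbered 59 against 980 T cells with or without a Cd4 UMI. Against Cd8 T cells, no minimum CPM gave 946 and 287. The Foxp3 share of T cells in late db/db was 4.02% with at least 2 Foxp3 UMIs, 4.42% after thinning and 16.7% of T cells without Cd8 UMIs. With at least 2 Foxp3 UMIs it was 2.38% in early db/db and 0% in late db/db with intervention. Genes whose log2 ratio changed sign follow, and the cause was not tested. With doublets left out Ccl21a was -0.89. With at least 2 Foxp3 UMIs Apol7c was -1.86, Ccl22 -0.94, Clu -0.46, Fscn1 -3.65, Lyz1 -3.07 and Serpinb6b -0.029. With a Cd4 UMI in the members Clu was -0.60, Fosb -0.21 and Rbp4 -0.10. Against T cells with or without a Cd4 UMI Ccl21a was -1.09, Chga -0.068, Clu -0.32, Pcsk2 -0.46, Rbp4 -1.42, Tm4sf4 -0.083 and Wfdc18 -0.32. After thinning Chga was -0.064, Fosb -0.010 and Pcsk2 -0.10. Without cells holding a marker UMI of another type Fosb was -0.27, Lgals3 1.20 and Tyrobp 1.56. Without cells of over 20000 UMIs Chga was -0.83, Fosb -0.017, Lgals3 0.29, Lyz1 -4.15, Pcsk2 -1.54, Rbp4 -1.80, Tm4sf4 -0.26 and Ttr -1.93. Without cells of over 2% other-type markers Apol7c was -1.13, Cela2a 0.14, Chga -0.24, Clps 0.070, Enpp2 0.10, Fscn1 -0.023, Pcsk2 -0.47, Rbp4 -1.40 and Try5 0.20. With 1 library per group, no replicate could be left out. No paired analysis was possible because each group is 1 library.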
